A study of Mus musculus with 8 samples.

Results

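Germline and meiosis genes were followed in mouse embryonic stem cells (ESCs) under 4 culture conditions. They were 42 genes chosen by symbol from a list of factors of germ cell fate, the piRNA pathway, the synaptonemal complex, meiotic cohesin and recombination and other testis products, of 20278 genes in the files. All 42 had a value, and 37 passed the filter of at least 10 reads in at least 2 samples and were tested. The rule uses no measured value, but the genes were picked with earlier results of these data known.

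In the developing embryo, germline genes are switched off in somatic cells, many of them by methylation of CG dinucleotides in their promoters. E2F6, the MGA and MAX pair, other subunits of the non-canonical Polycomb complex PRC1.6 and the histone methyltransferase SETDB1 are known to keep them off in ESCs, and primordial germ cells switch them on while their DNA is demethylated. The piRNA pathway, a large share of these genes, uses small RNAs and PIWI proteins to silence transposons in germ cells, and the synaptonemal complex holds paired chromosomes together in meiosis.

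N33 is an ESC line of C57BL/6 origin by the labels (C57BL/6J by the study's methods), and poly-A RNA was sequenced from 2 replicates per condition, which the study describes as biological for G and F. G cells grew on gelatin in serum without feeders, F cells on feeders in serum, F2i cells on feeders in serum with 2i, and NB2i cells in serum-free N2B27 medium with 2i, on plates coated with poly-L-ornithine and laminin. All 4 conditions contained LIF at 1000 U/ml, and serum was 20% fetal bovine serum in the feeder and gelatin protocols. 2i is a pair of inhibitors, CHIR99021 against Gsk3β (3 µM in NB2i) and PD0325901 against Mek (1 µM in NB2i), and the doses in F2i were not given in the sources used here. Feeders were mouse embryonic fibroblasts treated with mitomycin C, from which ESCs were separated in 2 rounds of differential adherence before RNA extraction. N33 is a single line, so the conditions were compared in a single genetic background, and NB2i differed from F2i in feeders, serum, basal medium and coating together.

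The samples held 20129641 to 20664488 expected counts, the RSEM estimate of the reads per gene. The 8 ESC identity genes summed to 1731 to 2065 FPKM in every sample, where FPKM is the read number scaled by transcript length and library depth. Single genes of this list did change. In NB2i, Utf1 was 9.68-fold lower than in G, and Tfcp2l1 and Klf4 were 7.11-fold and 2.8-fold higher. Fibroblast markers were not absent after feeder removal. Their 14 genes summed to 46.7 to 48.3 FPKM in G, 360.1 to 370.4 in F, 781 to 788 in F2i and 2.88 to 3.70 in NB2i, and 4 of them (Lum, Dcn, Postn and S100a4) were listed at 0 in both NB2i samples. The 8 genes of the 2-cell-like state, which includes the Zscan4 family, summed to 1.16 to 1.26 FPKM in G, 27.5 to 28.3 in F, 64.1 to 64.9 in F2i and 0.02 to 0.08 in NB2i, where 5 (Zscan4c, Zscan4f, Tcstv3, Tmem92 and Usp17le) were listed at 0. Both marker sums were lowest in NB2i, as were 23 of the 37 tested members (62.2%, beside 33.4% of all genes tested). From G to F, 13 of the 14 fibroblast and 8 of the 8 2-cell-like markers were called higher. Of the 37 members 1 was, beside 5.59% of all genes. The part of the markers in the differences with F and F2i was not tested. In bulk RNA, fewer expressing cells and less RNA per cell cannot be told apart.

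The promoters of 6 members are shown because these genes had the largest change of expression within their role among genes with a promoter window, though Tex101 entered the tests through its high F2i samples alone. Each window runs from 250 bases before to 50 bases after a start site, 5′ to 3′ on the strand of the gene, in RefSeq's GRCm38.p6 assembly. Capitals mark every CG dinucleotide and the whole of every CACGTG, the E-box to which MGA and MAX bind. The windows are chr13:112652261-112652560 (minus strand) for Ddx4, chrX:134476441-134476740 (minus strand) for Taf7l, chr19:56825959-56826258 (plus strand) for Tdrd1, chr2:178407609-178407908 (minus strand) for Sycp2, chr15:82082226-82082525 (plus strand) for Mei1 and chr7:24672001-24672300 (minus strand) for Tex101. The Mei1 window belongs to a start site 12402 bases inside the gene.
Ddx4: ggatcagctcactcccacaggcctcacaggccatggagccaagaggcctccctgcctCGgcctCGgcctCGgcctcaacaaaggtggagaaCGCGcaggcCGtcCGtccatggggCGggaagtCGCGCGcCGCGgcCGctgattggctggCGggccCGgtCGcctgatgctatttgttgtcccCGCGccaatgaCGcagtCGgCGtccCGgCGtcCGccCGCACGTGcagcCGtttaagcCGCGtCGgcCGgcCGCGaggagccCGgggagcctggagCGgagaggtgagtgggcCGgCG
Taf7l: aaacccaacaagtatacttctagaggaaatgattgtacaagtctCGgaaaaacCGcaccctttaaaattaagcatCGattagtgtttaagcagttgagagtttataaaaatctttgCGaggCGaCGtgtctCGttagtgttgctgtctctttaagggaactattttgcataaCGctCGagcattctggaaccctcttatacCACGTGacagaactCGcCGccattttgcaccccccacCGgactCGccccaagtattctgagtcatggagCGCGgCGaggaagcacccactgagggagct
Tdrd1: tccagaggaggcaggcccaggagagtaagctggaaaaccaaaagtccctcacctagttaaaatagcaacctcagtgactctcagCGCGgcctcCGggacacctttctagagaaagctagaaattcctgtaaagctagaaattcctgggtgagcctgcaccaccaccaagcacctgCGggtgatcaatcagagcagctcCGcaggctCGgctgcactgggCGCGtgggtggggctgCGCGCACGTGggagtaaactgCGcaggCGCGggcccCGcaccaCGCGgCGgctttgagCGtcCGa
Sycp2: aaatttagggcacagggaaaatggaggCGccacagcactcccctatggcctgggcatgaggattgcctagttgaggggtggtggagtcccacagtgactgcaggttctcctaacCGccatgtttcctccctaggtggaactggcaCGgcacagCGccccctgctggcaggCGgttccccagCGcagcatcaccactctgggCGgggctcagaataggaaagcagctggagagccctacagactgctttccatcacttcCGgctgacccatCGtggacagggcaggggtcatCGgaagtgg
Mei1: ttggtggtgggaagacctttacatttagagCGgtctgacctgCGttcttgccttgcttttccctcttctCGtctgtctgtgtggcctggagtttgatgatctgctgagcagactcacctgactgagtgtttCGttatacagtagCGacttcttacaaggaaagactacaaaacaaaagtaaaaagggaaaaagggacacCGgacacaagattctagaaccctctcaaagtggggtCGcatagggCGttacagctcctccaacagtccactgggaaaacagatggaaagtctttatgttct
Tex101: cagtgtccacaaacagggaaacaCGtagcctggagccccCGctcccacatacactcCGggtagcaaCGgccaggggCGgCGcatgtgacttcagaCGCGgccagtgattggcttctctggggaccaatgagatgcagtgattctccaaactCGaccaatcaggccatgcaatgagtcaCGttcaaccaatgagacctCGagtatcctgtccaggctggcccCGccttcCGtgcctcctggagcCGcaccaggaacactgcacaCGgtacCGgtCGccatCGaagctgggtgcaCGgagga

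Ddx4 held 38 CG dinucleotides, the most of any member with a window, and Mei1 held 8. Ddx4, Taf7l and Tdrd1 each held CACGTG once, and Sycp2, Mei1 and Tex101 did not hold it. Across the 36 members with a promoter window in the table (the first window listed for each gene), the median was 18.5 CG dinucleotides (range 3 to 38), beside 20 for the 12016 tested genes with a window and 7 for all 27025 windows. CACGTG, which reads the same on both strands and holds a CG itself, was in 15 of the 36 windows (41.7%), in 10% of the tested genes and in 7.2% of all windows. TCCCGC, an E2F-type motif searched on both strands, was in 13 of 36 (36.1%), in 34.8% of the tested genes and in 20% of all windows. These shares are descriptions of the windows and were not tested.

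The label under which these genes were listed describes them as silenced by methylation. The files hold no methylation data, and the RNA did not show silence of most members. Of the 42, 27 averaged at least 1 FPKM in G, 27 in F, 27 in F2i and 22 in NB2i. The 5 members under the filter had at most 8 reads in a sample. Ddx4, Tdrd12, Sycp3, Rec8 and Dmc1 averaged at least 10 FPKM in both G and F. They are therefore called germline and meiosis genes here.

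Culture in N2B27 with 2i gave lower RNA of many germline genes. Of the 37 members tested, 15 were lower in NB2i than in G and 6 were higher, by 2-fold or more with an adjusted p under 0.05 (quasi-likelihood test in edgeR, Benjamini-Hochberg over all 15287 genes tested). Among all genes tested, 16.1% were lower and 11.1% higher in NB2i than in G, so that members were called lower in 40.5% and higher in 16.2% of cases. Neither condition had feeders, but of the 14 fibroblast markers 9 were lower and 1 (Pdgfrb) was higher in NB2i than in G. Of the 8 markers of the 2-cell-like state, 5 were lower and 0 higher. The part of these markers in the difference was not tested. The fall was largest in Tdrd1 (22.6-fold) and the rise in Fkbp6 (13.7-fold). Against F, 18 members were lower and 3 higher in NB2i, where 17.6% of all genes were lower and 10% higher. Against F2i, 18 members were lower and 0 higher in NB2i, where 13.3% of all genes were lower and 6.01% higher. Although none passed the 2-fold threshold upwards in the last comparison, 8 members were higher at an unadjusted p under 0.05 in edgeR and 6 in DESeq2, which also called 0. The median log2 fold change of the members was -0.71 against G, -0.94 against F and -1.14 against F2i, beside 0.01, -0.01 and 0.02 for all genes tested. These 3 comparisons share the NB2i samples. Asking for at least 10 counts in every sample left 26 members, of which 9, 10 and 11 were lower in NB2i than in G, F and F2i. Of all 12730 genes that this filter kept, 1410, 1368 and 951 were lower in the same comparisons. Tex101 reached 10 counts in F2i samples alone, and without it 14, 17 and 17 were lower. Tex13, among the 18 lower in NB2i than in F2i, reached 10 counts in 1 G and 1 F2i sample alone.

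Addition of 2i to feeder cultures moved members both ways. In F2i, 7 members were higher and 7 lower than in F, where 6.44% of all genes were higher and 7% lower, and the median log2 fold change was 0.02 over the members and 0 over all genes. Tex13, among the 7 higher, reached 10 counts in 1 G and 1 F2i sample alone. The 7 lower were 4 in DESeq2 and 3 with at least 10 counts in every sample. Beside these, 903 of all 15287 genes were lower in DESeq2, and 582 of the 12730 genes kept by the stricter filter. Between F and G, shares of members called were near those of all genes. Hormad2 was the 1 member higher in F than in G (2 without G replicate 2 or F replicate 2), where 5.59% of all genes were higher, and 0 members were lower, where 1.65% of all genes were lower. At an unadjusted p under 0.05, 3 members were lower in F than in G in edgeR and 2 in DESeq2, which called 0. Across the 4 conditions together, 36 of 37 members differed at an adjusted p under 0.05, all but Nanos3, but so did 88.3% of all genes tested, so the count says little about these genes. The lowest condition was NB2i for 23 of 37 members (62.2%, beside 33.4% of all genes), and the highest was F2i for 13 (35.1%, beside 20.6%).

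**Figure D1:**
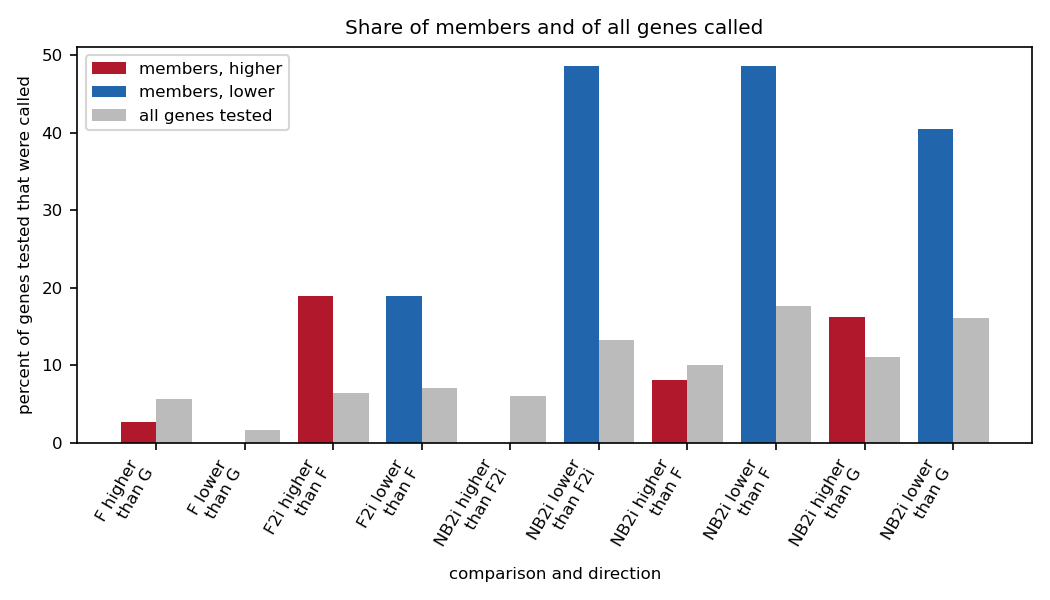
Percent of genes called (y axis) in each comparison and direction (x axis), for the 37 tested members (coloured bars) and for all 15287 genes tested (grey bars). The members' bars stand at 48.6%, 48.6% and 40.5% for genes lower in NB2i than in F2i, F and G, beside 13.3%, 17.6% and 16.1% of all genes.

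Read as 2 steps, from F to F2i and from F2i to NB2i, the members formed different patterns. Ddx4, Mei1, Tdrd1 and Tdrkh were called lower at both steps (10.8% of members, beside 2.09% of all genes). Dazl, Dpep3, Hormad1 and Tex13 were called higher at the first and lower at the second (10.8%, beside 2.08%). Another 10 (Brdt, Dnd1, Mael, Mov10l1, Slc25a31, Syce1, Sycp1, Sycp3, Taf7l and Tex101) were called lower at the second step and not called at the first (27%, beside 9.16%). Fkbp6, Gtsf1 and Sohlh2 were called higher at the first step (8.11%, beside 3.3%), Nanos3, Piwil2 and Sycp2 were called lower at it (8.11%, beside 4.03%), and none of these 6 was called at the second. The other 13 members were called at neither, as were 73.3% of all genes tested. Both steps share the F2i samples, and the difference between the steps was not tested. Tex101 passed the filter through its F2i samples alone, so the filter favoured its lower call at the second step. Tex13 passed it through 1 G and 1 F2i sample, so the filter favoured its calls at both steps. In DESeq2 the first-step calls of Dpep3, Tex13, Mei1, Nanos3 and Sycp2 were lost, as was the second-step call of Tex13.

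**Figure D2:**
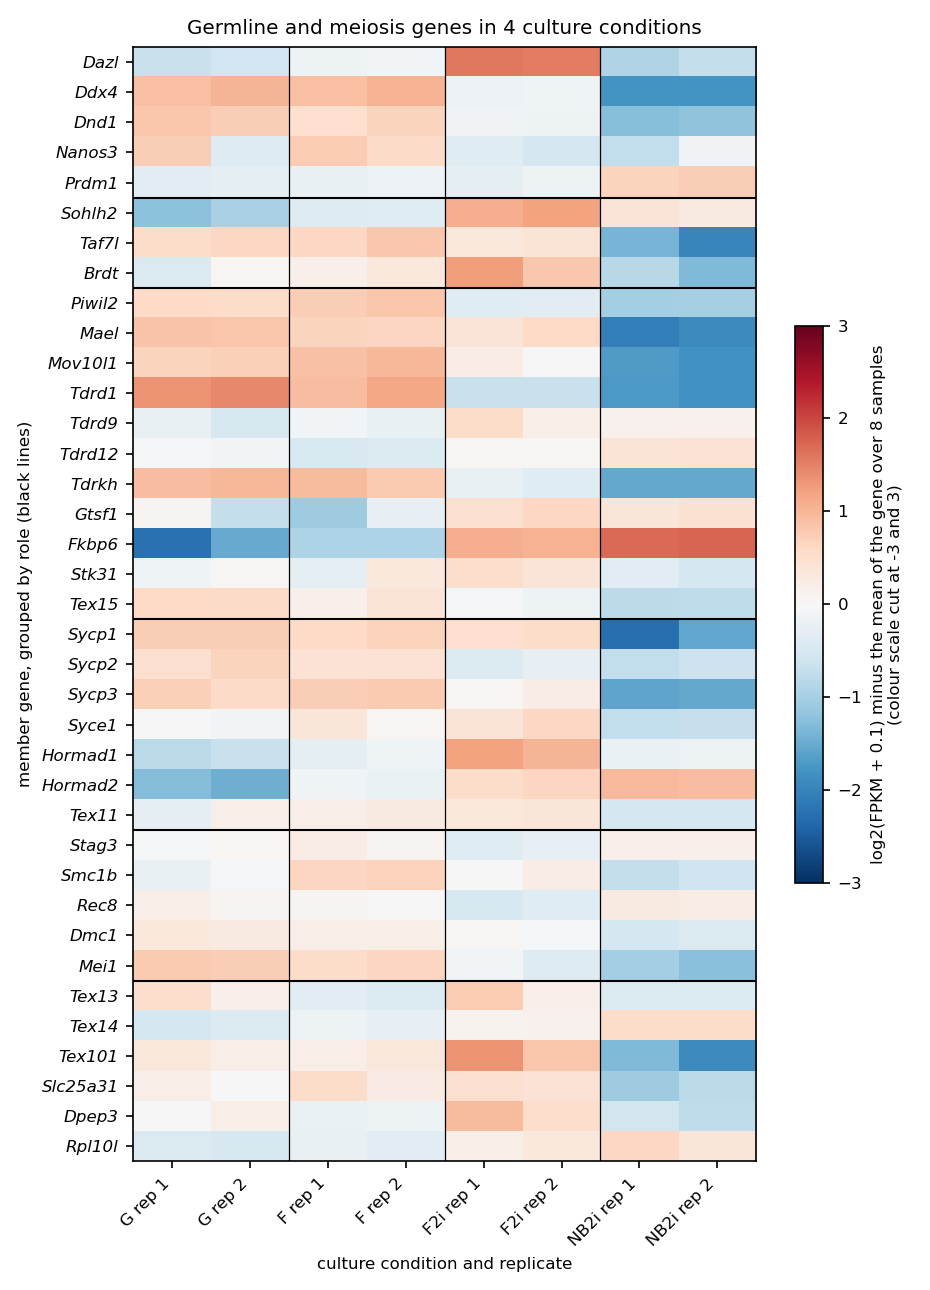
Level of the 37 tested members (rows, grouped by role) in each of the 8 samples (columns), as log2(FPKM + 0.1) minus the mean of the gene over the samples, with red above and blue below that mean. The NB2i columns are blue for most genes, with Ddx4 at 2.19 and 2.16 FPKM, and red for a few such as Fkbp6 at 9.72 and 9.95 FPKM.

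Among the germ cell RNA-binding and fate factors, Ddx4, the germ cell RNA helicase also called Vasa, was at 14.7 and 15.9 FPKM in G, 14.7 and 16.3 in F, 6.92 and 7.15 in F2i and 2.19 and 2.16 in NB2i. The levels in G and F overlapped, F2i lay below both and NB2i lay below F2i. Ddx4 fell 2.14-fold from F to F2i (log2 fold change -1.10 ± 0.07 (SE), edgeR adjusted p = 4e-11) and was 6.72-fold lower in NB2i than in G (log2 fold change -2.75 ± 0.09 (SE), edgeR adjusted p = 5.3e-17). Dazl, an RNA-binding protein that promotes translation in germ cells, was at 3.07 and 3.27 FPKM in G, 4.41 and 4.7 in F, 14.9 and 14.6 in F2i and 2.58 and 2.97 in NB2i. Both F2i samples stood far above the other 6, and both NB2i samples lay below G. The rise from F to F2i was 3.34-fold (log2 fold change 1.74 ± 0.07 (SE), edgeR adjusted p = 1.7e-14), the fall from F2i to NB2i was 5.26-fold (log2 fold change -2.40 ± 0.08 (SE), edgeR adjusted p = 2e-16), and NB2i and G were not called different (log2 fold change -0.12 ± 0.10, adjusted p = 0.33). The F2i peak of Dazl went with the highest sums of the fibroblast and 2-cell-like markers, whose part in it was not tested.

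Dnd1, which binds mRNA in primordial germ cells, was at 8.53 and 7.94 FPKM in G, 6.74 and 7.54 in F, 4.4 and 4.25 in F2i and 1.9 and 2.01 in NB2i. Its levels stepped down from G and F through F2i to NB2i without overlap between these, and it was 4.02-fold lower in NB2i than in G (log2 fold change -2.01 ± 0.13 (SE), edgeR adjusted p = 5.9e-12). Wdr55 overlaps 5.8% of the exon bases of Dnd1 on the other strand, and it too was higher in G (29.4 and 27.1 FPKM) than in NB2i (17.7 and 16.7). Whether reads were assigned by strand was not given in the sources used here, so reads of the shared bases cannot be told apart. Prdm1, the transcriptional repressor Blimp1 that specifies primordial germ cells, was at 3.29 and 3.4 FPKM in G, 3.58 and 3.71 in F, 3.43 and 3.76 in F2i and 6.74 and 7.05 in NB2i. Its 6 serum samples lay close together and both NB2i samples stood above them, 2.16-fold above G (log2 fold change 1.11 ± 0.07 (SE), edgeR adjusted p = 7.3e-12). Nanos3, which keeps primordial germ cells alive, ranged from 0.41 to 1.33 FPKM with at most 19 reads in a sample. It was called lower in F2i and in NB2i than in F, but DESeq2 gave adjusted p = 0.17 and 0.15 and the calls were also lost without a filter on low counts.

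Of the germline transcription regulators, Sohlh2, a basic helix-loop-helix factor of early spermatogonia and oocytes, was at 2.03 and 2.45 FPKM in G, 3.75 and 3.76 in F, 10.6 and 11.4 in F2i and 6.45 and 5.96 in NB2i. F2i was highest and NB2i second, and no 2 conditions overlapped. It rose 3.00-fold from F to F2i (log2 fold change 1.59 ± 0.09 (SE), edgeR adjusted p = 2.4e-12) and was 2.90-fold higher in NB2i than in G (log2 fold change 1.53 ± 0.11 (SE), edgeR adjusted p = 3.9e-11). Taf7l, a germ cell counterpart of the TFIID subunit TAF7, was at 1.06 and 1.11 FPKM in G, 1.12 and 1.28 in F, 0.90 and 0.94 in F2i and 0.20 and 0.10 in NB2i. Levels were close in the 6 serum samples and low in both NB2i samples, 6.78-fold below G (log2 fold change -2.76 ± 0.35 (SE), edgeR adjusted p = 4.1e-07). Brdt, a testis-specific bromodomain protein, was at 0.36 and 0.55 FPKM in G, 0.60 and 0.68 in F, 1.4 and 0.99 in F2i and 0.25 and 0.15 in NB2i. Its F2i samples were the highest and its NB2i samples the lowest, and it fell 4.15-fold between them (log2 fold change -2.05 ± 0.30 (SE), edgeR adjusted p = 3.8e-06). The lower call of Brdt against F was lost without NB2i replicate 2 (log2 fold change -0.74, adjusted p = 0.05). Figla, an oocyte transcription factor, had at most 2 reads in a sample and was not tested.

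In the piRNA pathway, 6 of the 11 members tested were lower and 1 was higher in NB2i than in G, beside 16.1% and 11.1% of all genes. Tdrd1, a tudor protein of the germ granules that binds PIWI proteins, was at 1.15 and 1.24 FPKM in G, 0.84 and 1.01 in F, 0.21 and 0.21 in F2i and 0.05 and 0.04 in NB2i. G and F lay near 1 FPKM, F2i well below and NB2i close to 0. The fall was 4.18-fold from F to F2i (log2 fold change -2.06 ± 0.21 (SE), edgeR adjusted p = 4.2e-08) and 22.6-fold from G to NB2i (log2 fold change -4.50 ± 0.28 (SE), edgeR adjusted p = 3e-12). Piwil2, the PIWI protein Mili, was at 5.9 and 5.73 FPKM in G, 6.51 and 6.94 in F, 2.99 and 3.01 in F2i and 1.84 and 1.88 in NB2i. Both conditions with 2i lay below both without it, and Piwil2 was 2.18-fold lower in F2i than in F (log2 fold change -1.13 ± 0.07 (SE), edgeR adjusted p = 2.1e-11) and 2.98-fold lower in NB2i than in G (log2 fold change -1.57 ± 0.08 (SE), edgeR adjusted p = 1.3e-13). Tdrkh, a tudor protein on mitochondria where piRNAs are trimmed, was at 2.16 and 2.29 FPKM in G, 2.2 and 1.97 in F, 0.93 and 0.83 in F2i and 0.31 and 0.31 in NB2i. G and F overlapped, F2i lay below them and NB2i lower still, 2.31-fold from F to F2i (log2 fold change -1.21 ± 0.17 (SE), edgeR adjusted p = 3e-06) and 6.83-fold from G to NB2i (log2 fold change -2.77 ± 0.21 (SE), edgeR adjusted p = 7.4e-11). Oaz3 overlaps 36.7% of the exon bases of Tdrkh on the other strand. Oaz3 itself had at most 0.11 FPKM in any sample.

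Mael, or Maelstrom, which acts in piRNA-guided silencing of transposons, was at 6.88 and 6.75 FPKM in G, 6.04 and 5.89 in F, 4.95 and 5.78 in F2i and 0.82 and 0.92 in NB2i. The 6 serum samples lay within a narrow band and the NB2i samples far under it, 7.46-fold below G (log2 fold change -2.90 ± 0.16 (SE), edgeR adjusted p = 3.9e-13). Mov10l1, an RNA helicase that processes piRNA precursors, was at 1.84 and 1.91 FPKM in G, 2.14 and 2.35 in F, 1.34 and 1.13 in F2i and 0.28 and 0.25 in NB2i. Its NB2i samples were again apart from all others, 6.68-fold below G (log2 fold change -2.74 ± 0.18 (SE), edgeR adjusted p = 9.9e-12). Tex15, required for piRNA-directed DNA methylation in fetal male germ cells, was at 5.76 and 5.7 FPKM in G, 4.23 and 5.07 in F, 3.64 and 3.38 in F2i and 2.17 and 2.21 in NB2i. It was 2.496-fold lower in NB2i than in G (log2 fold change -1.32 ± 0.08 (SE), edgeR adjusted p = 2.4e-12), and its lower call against F fell under the 2-fold threshold without F replicate 2 (log2 fold change -0.90).

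Fkbp6, a co-chaperone needed for loading of PIWI proteins, went the other way, at 0.54 and 0.95 FPKM in G, 1.47 and 1.49 in F, 6.27 and 6.12 in F2i and 9.72 and 9.95 in NB2i. Each condition lay above the one before it, in the order G, F, F2i and NB2i. It rose 4.45-fold from F to F2i (log2 fold change 2.15 ± 0.16 (SE), edgeR adjusted p = 2.6e-10) and was 13.7-fold higher in NB2i than in G (log2 fold change 3.78 ± 0.17 (SE), edgeR adjusted p = 1.4e-14). Gtsf1, a zinc finger protein of the pathway, ranged from 0.62 to 2.19 FPKM and was called higher in F2i and NB2i than in F. Both calls of Gtsf1 were lost without F replicate 1 (log2 fold change 0.90 and 0.75), and the call in NB2i was also lost in DESeq2 (adjusted p = 0.055). Tdrd12, which takes part in secondary piRNA production, was the most abundant member at 43.8 and 42.2 FPKM in G, 32.7 and 33.8 in F, 46.8 and 45.9 in F2i and 59.6 and 60.9 in NB2i, but no change reached 2-fold. Tdrd9 and Stk31 were not called in any comparison. Asz1 and Tdrd6 had at most 8 and 7 reads in a sample and were not tested. Tdrd6 had 12 reads over the G samples and 0 over the NB2i samples. The ratio is 4.03 if the 0 is set to a floor of 3 counts over the group. It carries no interval and leaves out the counting error of the 12 reads.

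**Figure D3:**
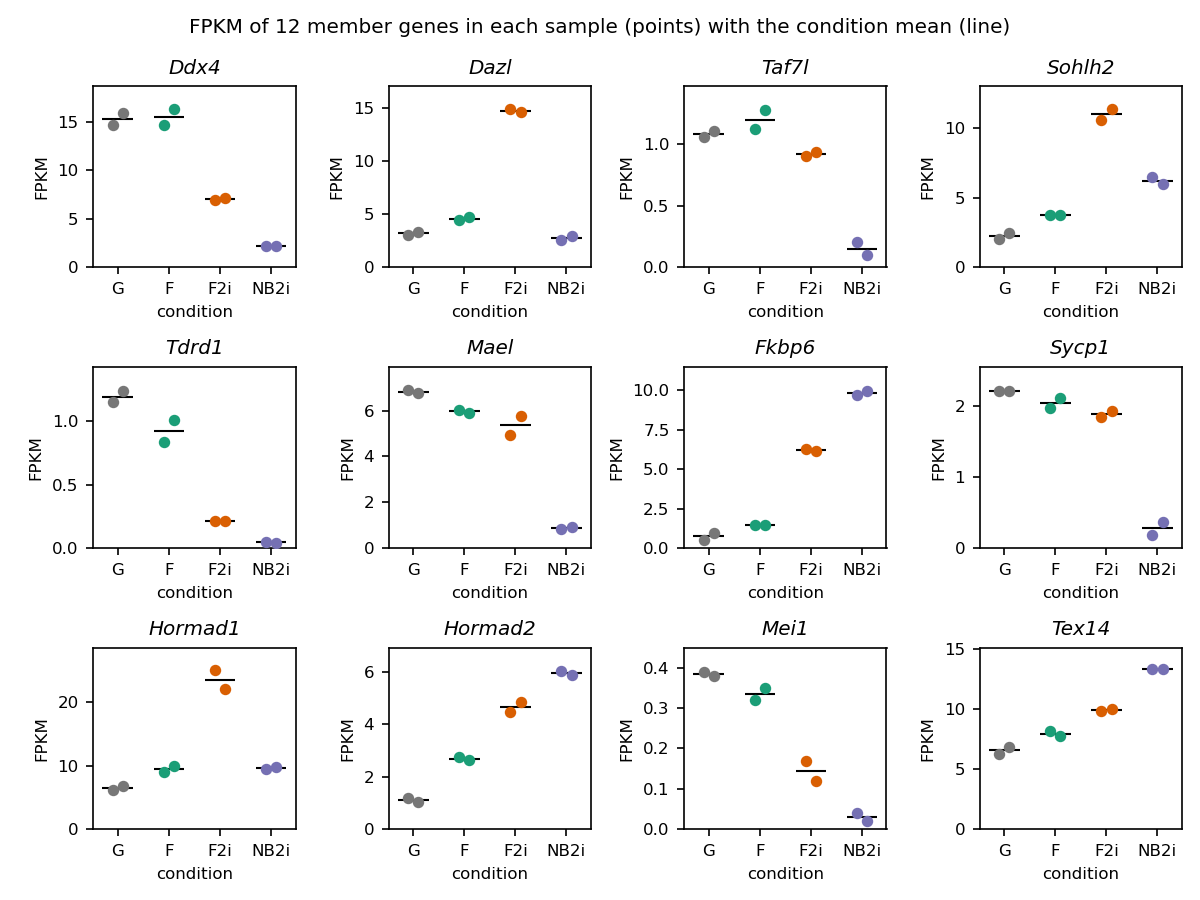
FPKM (y axis) of 12 members in each sample (points) by culture condition (x axis), with the mean of the 2 replicates as a line and the axis starting at 0. Tdrd1 and Mei1 step down from G to NB2i and Ddx4 from F to NB2i, Dazl and Hormad1 peak in F2i at 14.9 and 14.6 and 25.01 and 22.1 FPKM, and Fkbp6, Hormad2 and Tex14 step up.

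The synaptonemal complex genes moved in both directions, with Sycp1, Sycp2 and Sycp3 lower and Hormad2 higher in NB2i than in G among the 7 tested. Sycp3, a protein of the lateral elements, was at 15.1 and 13.8 FPKM in G, 15.5 and 15.9 in F, 9.67 and 10.8 in F2i and 3.03 and 3.1 in NB2i. G and F were close together, and NB2i lay far below, 4.50-fold under G (log2 fold change -2.17 ± 0.12 (SE), edgeR adjusted p = 2.2e-13). Chpt1 overlaps 52.2% of the exon bases of Sycp3 on the other strand, and Chpt1 was at 6.44 and 6.23 FPKM in G and 12.1 and 13.9 in NB2i, the opposite direction. Sycp1, the transverse filament protein that joins the chromosome axes, was at 2.22 and 2.21 FPKM in G, 1.98 and 2.12 in F, 1.85 and 1.93 in F2i and 0.19 and 0.37 in NB2i. Its 6 serum samples stood apart from both NB2i samples, 7.49-fold higher in G (log2 fold change -2.90 ± 0.20 (SE), edgeR adjusted p = 1.5e-11 for NB2i against G). Sycp2, the partner of Sycp3 in the lateral elements, was at 0.18 and 0.22 FPKM in G, 0.17 and 0.17 in F, 0.05 and 0.07 in F2i and 0.02 and 0.03 in NB2i. These are low values, of at most 26 reads in a sample, and the difference between NB2i and G passed the test (log2 fold change -3.12 ± 0.51 (SE), edgeR adjusted p = 1.1e-05), whereas the lower call in F2i than in F was lost in DESeq2 (adjusted p = 0.07). Syce1, of the central element, was at 2.49 and 2.33 FPKM in G, 3.2 and 2.58 in F, 3.32 and 3.86 in F2i and 1.43 and 1.48 in NB2i. It was highest in F2i and lowest in NB2i, 2.45-fold apart (log2 fold change -1.29 ± 0.18 (SE), edgeR adjusted p = 2.3e-06).

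Hormad1, a HORMA domain protein of unsynapsed axes, was at 6.15 and 6.74 FPKM in G, 8.99 and 9.95 in F, 25.01 and 22.1 in F2i and 9.48 and 9.72 in NB2i. F2i was far above the rest, and F and NB2i overlapped. It rose 2.61-fold from F to F2i (log2 fold change 1.38 ± 0.08 (SE), edgeR adjusted p = 2.1e-12) and fell 2.42-fold from F2i to NB2i (log2 fold change -1.28 ± 0.08 (SE), edgeR adjusted p = 5e-12). As for Dazl, the peak coincided with the highest sums of feeder and 2-cell-like markers, and their part was not tested. Hormad2, its relative on the axes, was at 1.18 and 1.03 FPKM in G, 2.75 and 2.64 in F, 4.48 and 4.84 in F2i and 6.04 and 5.9 in NB2i. No conditions overlapped, and Hormad2 was 2.47-fold higher in F than in G (log2 fold change 1.30 ± 0.19 (SE), edgeR adjusted p = 1.3e-05) and 5.65-fold higher in NB2i than in G (log2 fold change 2.497 ± 0.16 (SE), edgeR adjusted p = 9e-12). Tex11 was not called, and Tex12 had at most 4 reads in a sample and was not tested.

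Of the meiotic cohesin and recombination genes, 1 of the 5 tested (Mei1) was lower and 0 were higher in NB2i than in G, a share near the 16.1% and 11.1% of all genes. Mei1, needed for the DNA breaks that start recombination, was at 0.39 and 0.38 FPKM in G, 0.32 and 0.35 in F, 0.17 and 0.12 in F2i and 0.04 and 0.02 in NB2i. G and F lay together, F2i below and NB2i near 0, and Mei1 was 14.3-fold lower in NB2i than in G (log2 fold change -3.84 ± 0.51 (SE), edgeR adjusted p = 7.4e-07). Its lower call in F2i than in F was lost in DESeq2 (adjusted p = 0.065) and without F2i replicate 2 (adjusted p = 0.078). Smc1b, a meiosis-specific cohesin subunit, was at 1.59 and 1.79 FPKM in G, 2.99 and 3.08 in F, 1.86 and 2.2 in F2i and 1.1 and 1.19 in NB2i. F was the highest condition and NB2i the lowest, 2.57-fold apart (log2 fold change -1.36 ± 0.12 (SE), edgeR adjusted p = 1.6e-09). The cohesin subunits Stag3 and Rec8 and the recombinase Dmc1 ranged from 6.08 to 12.8 FPKM over all samples and never changed 2-fold. Spo11, which cuts the DNA, had at most 2 reads in a sample and was not tested.

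Among the other testis and germ cell products, Tex14, of the bridges between germ cells, was at 6.27 and 6.83 FPKM in G, 8.19 and 7.72 in F, 9.82 and 10.01 in F2i and 13.3 and 13.3 in NB2i. It stepped up from G to NB2i without overlap, 2.13-fold in all (log2 fold change 1.09 ± 0.06 (SE), edgeR adjusted p = 4.6e-13). Rpl10l, a testis copy of a ribosomal protein gene, was at 7.11 and 6.84 FPKM in G, 8.21 and 7.65 in F, 10.8 and 12.02 in F2i and 14.8 and 12.3 in NB2i. It was 2.04-fold higher in NB2i than in G (log2 fold change 1.02 ± 0.11 (SE), edgeR adjusted p = 2.6e-08), close to the threshold, and the call was lost without G replicate 2 (log2 fold change 1.00) or without NB2i replicate 1 (0.89). Both NB2i samples lay above all G and F samples. Rpl10l resembles Rpl10, with which reads could be shared, but its expected counts were whole in all 8 samples. Tex101, a surface glycoprotein of germ cells, was at 0.38 and 0.33 FPKM in G, 0.33 and 0.38 in F, 0.86 and 0.57 in F2i and 0.05 and 0 in NB2i. NB2i held 1 read in all against 30 in F2i and 15 in G, ratios of 30.5 (95% counting interval 5.07 to 1245) and 15.1 (2.33 to 636), and no test is given for it, since it passed the filter through its high F2i samples alone. Slc25a31, Dpep3 and Tex13 had at most 39 reads in a sample and 0.11 to 1.16 FPKM. Slc25a31, a germ cell ADP/ATP carrier, was lower in NB2i than in each other condition, and Dpep3, a dipeptidase that shares 7.0% of its exon bases with Gm45752 on the other strand, and Tex13 were called higher in F2i than in F and in NB2i. In DESeq2 the F2i calls against F were lost for both (adjusted p = 0.068 and 0.18), and for Tex13 so was that against NB2i (adjusted p = 0.16). Tex13 passed the filter through 1 G and 1 F2i sample, so the filter favoured its F2i calls.

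**Figure D4:**
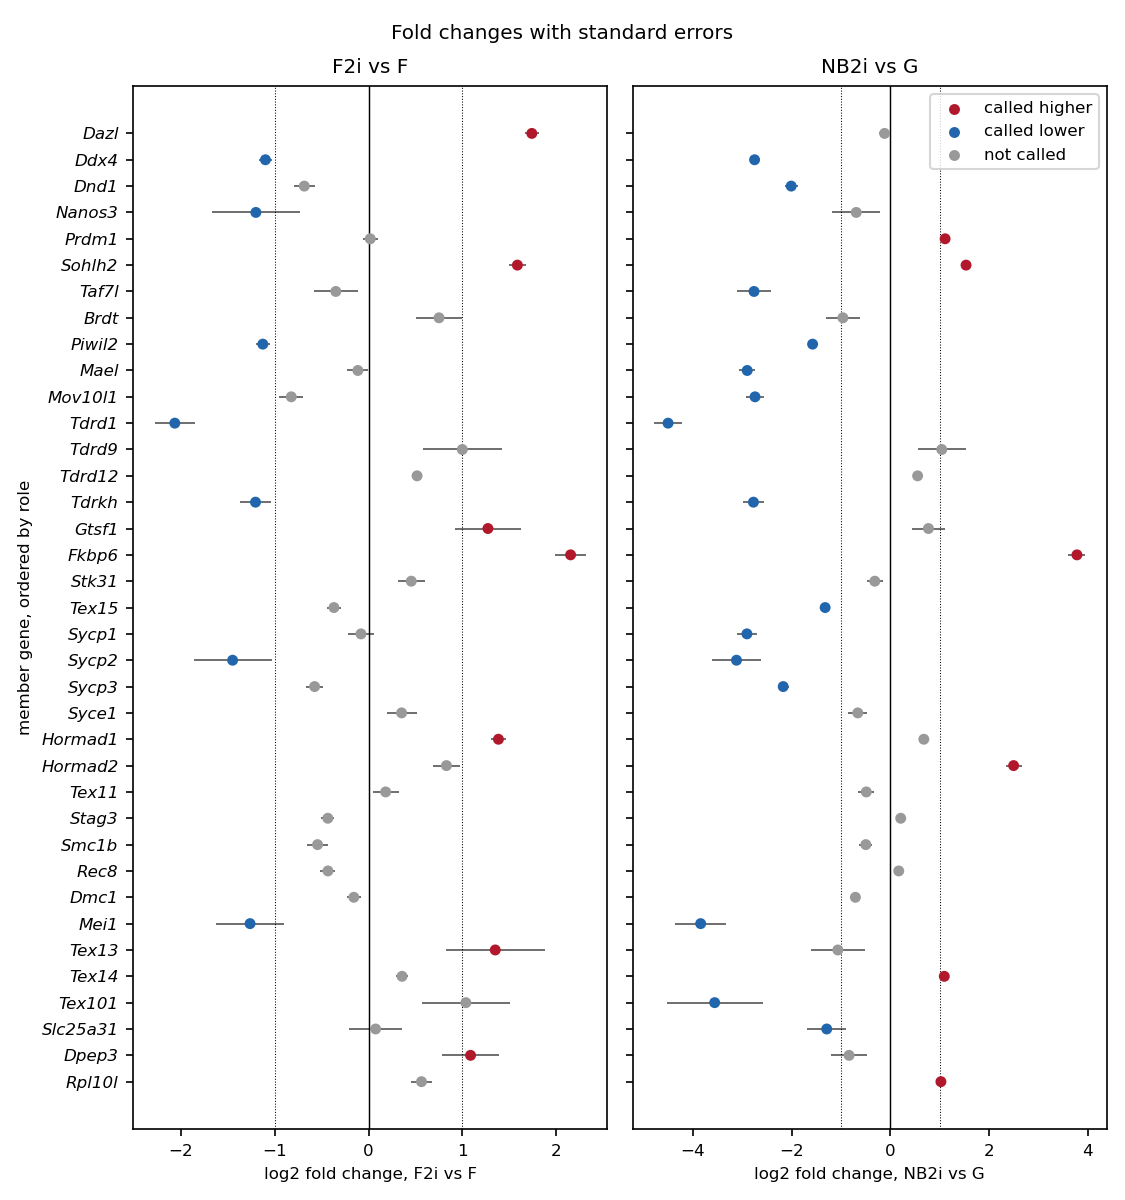
Log2 fold change (x axis, points) with its standard error (bars) of the 37 tested members (y axis, ordered by role), for F2i against F (left) and NB2i against G (right), with dotted lines at -1 and 1. Tdrd1 lies farthest left in both panels and Fkbp6 farthest right, and Dazl is high on the left panel (1.74) and near 0 on the right (-0.12).

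The promoter windows were then set beside expression. Of the 12 members with a window that were lower in NB2i than in G, 8 held CACGTG (66.7%), as did 1 of the 6 that were higher (16.7%) and 5 of the 15 that were not called (33.3%). The 8 were Ddx4, Taf7l, Mael, Mov10l1, Tdrd1, Sycp1, Sycp3 and Slc25a31, and the 1 higher was Fkbp6. The windows had medians of 20, 18.5 and 18 CG dinucleotides for members lower, higher and not called. Among the members higher in F2i than in F, 2 of 7 held CACGTG, as did 2 of the 6 lower and 10 of the 20 not called (50%). The windows of Prdm1, Fkbp6 and Mei1 belong to start sites more than 1000 bases inside the RefSeq gene. A match does not show that a factor binds there, and these shares carry no test.

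**Figure D5:**
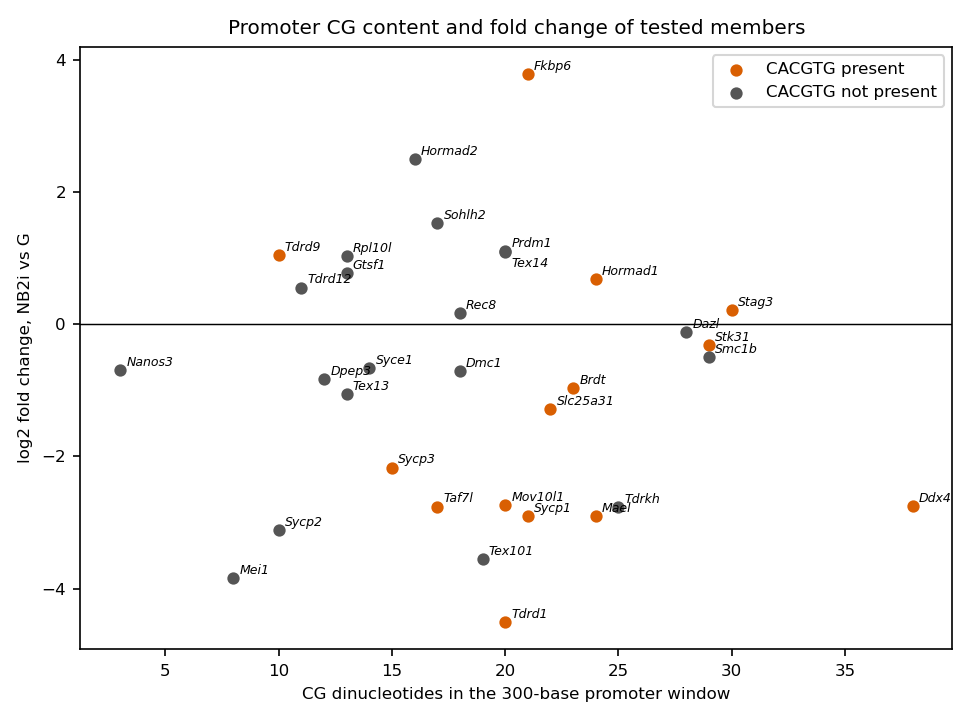
CG dinucleotides in the promoter window (x axis) against the log2 fold change in NB2i against G (y axis) for each tested member with a window, coloured by whether the window holds CACGTG. Tdrd1 (20 CG, log2 fold change -4.50) and Mei1 (8 CG, -3.84) fell most. Ddx4, with the most CG (38), was at -2.75.

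The enzymes that set DNA methylation were measured in the same samples. Dnmt3l, the cofactor of the de novo methyltransferases, was at 274 and 272 FPKM in G, 166 and 162 in F, 77.6 and 79.6 in F2i and 8.01 and 8.55 in NB2i. Dnmt3a and Dnmt3b, the enzymes themselves, were at 36.6 and 38.4 FPKM and 135 and 140.4 FPKM in G and at 2.96 and 2.9 and 16.5 and 16.6 in NB2i. All were lower in F2i than in F and in NB2i than in G, by log2 fold changes of -4.98 ± 0.06 for Dnmt3l, -3.52 ± 0.05 for Dnmt3a and -3.01 ± 0.04 for Dnmt3b in the latter. Uhrf1, which directs maintenance methylation, was higher in NB2i than in G (log2 fold change 1.02 ± 0.04 (SE), edgeR adjusted p = 3.5e-15), Tet3 was lower (log2 fold change -1.16 ± 0.11 (SE), edgeR adjusted p = 4.6e-09), and Dnmt1 was not called (log2 fold change 0.42 ± 0.04). In NB2i against G, the lower Dnmt3 RNA went with lower RNA of 15 members and higher RNA of 6. From G to F, the log2 fold changes of Dnmt3b, Dnmt3l and Dnmt3a were -1.12, -0.71 and 0.20. There 0 members were called lower and 1 higher, beside 1.65% and 5.59% of all genes. From F2i to NB2i they were -0.035, -3.24 and -1.37. There 18 members were called lower and 0 higher, beside 13.3% and 6.01%. What the Dnmt3 RNA levels did to methylation at any member was not measured here.

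Of 22 known repressors of germline genes, 1 was lower and 0 higher in NB2i than in G, beside 16.1% and 11.1% of all genes. It was Yaf2, a PRC1 subunit, at 5.36 and 4.53 FPKM in G, 4.34 and 5.17 in F, 4.66 and 4.47 in F2i and 2.5 and 2.03 in NB2i (log2 fold change -1.06 ± 0.13 (SE), edgeR adjusted p = 3.2e-07). Of the 22, 20 differed across the 4 conditions at an adjusted p under 0.05, beside 88.3% of all genes. Mga was at 22.1 and 22.2 FPKM in G, 21.3 and 22.2 in F, 22.0 and 20.4 in F2i and 24.9 and 25.1 in NB2i, and its log2 fold change from G to NB2i was 0.24 ± 0.04. For E2f6 the log2 fold change was 0.25 ± 0.07, for Pcgf6 -0.25 ± 0.05 and for Setdb1 -0.31 ± 0.04, all under 2-fold.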

How the data were processed

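Poly-A RNA from N33 ESCs was sequenced by the authors as single-end reads, aligned to mm10 by Bowtie2 and assigned to genes by RSEM. Each sample's table, deposited by the authors, gives an expected count per gene, RSEM's estimate of reads, not normalized (29.8% of values were not whole). The authors also deposited FPKM, that estimate scaled by transcript length and depth. Samples were grouped by their labels. The members and gene lists were chosen with earlier results of these data known. A gene not listed in a sample was taken as 0.

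After rounding, the expected counts were analysed in R 4.3.3 by the quasi-likelihood functions of edgeR 4.0.16, with TMM factors of 0.977 to 1.03. All 8 samples entered 1 fit by condition without a block, leaving 4 residual degrees of freedom, for the 15287 genes that reached 10 counts in 2 or more samples. Adjustment within each comparison followed Benjamini and Hochberg, and genes with an adjusted p under 0.05 and at least a 2-fold change were called. The standard error (SE) of a log2 fold change was derived from the test, as its absolute value divided by the square root of the F statistic. An exact permutation test of 2 against 2 samples cannot go below p = 0.3333, and the adjusted p-values depend on the fitted spread (biological coefficient of variation 3.25%). Replicates differed by more than sampling noise (chi-square 1.84 to 3.55 per degree of freedom), but the study calls them biological for G and F only, and elsewhere the p-values measure the spread between samples, which may be technical. Intervals cover counting error only.

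On data simulated for NB2i against G over 14943 genes, edgeR recovered 194 of 200 planted changes with 2 false calls and DESeq2 187 with 0. The error rate of the member calls in the measured samples was not tested. Values in every sample are given for the 25 called members with the largest 4-condition F statistic, of 30 called, and the others by counts and range. Values of 8 members, among them Piwil2, Tdrd1, Fkbp6 and Sycp1 to Sycp3, were not always whole, so RSEM divided reads of theirs with other genes. Tex13 is Tex13b in RefSeq. Promoter windows were read from RefSeq (GRCm38.p6) for the 36 members matched, and exon overlaps from GENCODE M21, with Python 3.11.15 and pandas 2.3.3. The alternatives run were edgeR with size factors from DESeq2, DESeq2 1.42.0 itself, no filter, at least 10 counts in every sample, the replicate number as a block, and each sample left out in turn.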

Additional observations from a re-analysis of the deposited data

How the results depend on the processing

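Of 75 calls of a member in a comparison, 63 passed the threshold under every alternative that tested the gene, 12 were lost under some and 0 reversed. Of 143 counts of called members recomputed, 135 were within 1.5 times the reported count. The replicate number as a replicate block gave the same counts in all comparisons (15 lower and 6 higher in NB2i than in G, 7 and 7 in F2i against F), and samples sharing a number did not deviate together (6 group pairs gave a mean r of -0.018, from -0.053 to 0.044, over 14516 genes), so the numbers were not taken as pairs. DESeq2 called 4 members lower in F2i than in F, where edgeR called 7. Of all 15287 genes, it called 903 lower there and edgeR 1070. Asking for 10 counts in every sample, which tests fewer genes, left 3 lower in F2i than in F and 11, 10 and 9 lower in NB2i than in F2i, F and G. Of the 12730 genes then tested, 582, 951, 1368 and 1410 were lower, in the same order. With each sample left out in turn, members higher in F than in G numbered 1 to 2 (2 without G replicate 2 or F replicate 2), and those higher in NB2i than in F2i 0 to 1 (1 without F2i replicate 2). Depth limits the 5 members under the filter, of at most 8 reads in a sample, and Nanos3, Sycp2, Tdrd9, Tex13 and Tex101, of at most 26. The 3 counts without Tex101 were chosen after the data were seen and are not among the 143.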

Other observations

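Germline and meiotic genes outside the 42 were also measured, from a list of which 32 genes were tested. In NB2i, 12 of them were lower and 3 higher than in G (37.5% and 9.38%, beside 16.1% and 11.1% of all genes). Stra8, the retinoic acid target that licenses entry into meiosis, was at 3.66 and 3.29 FPKM in G, 6.14 and 7.59 in F, 4.85 and 4.12 in F2i and 0.22 and 0.30 in NB2i. Both NB2i samples lay far below the other 6, 12.2-fold under G (log2 fold change -3.60 ± 0.27 (SE), edgeR adjusted p = 8.4e-11), and F was 2.01-fold above G (log2 fold change 1.01 ± 0.14 (SE), edgeR adjusted p = 5e-06). Tdrd5, a tudor protein of the piRNA pathway, was at 4.67 and 4.74 FPKM in G, 3.19 and 3.15 in F, 0.55 and 0.51 in F2i and 0.56 and 0.66 in NB2i. Here both conditions with 2i were low and close together, and Tdrd5 was 5.94-fold lower in F2i than in F (log2 fold change -2.57 ± 0.14 (SE), edgeR adjusted p = 1.7e-12). Tex19.1, which is expressed in germ cells and pluripotent cells, was at 26.4 and 25.6 FPKM in G, 43.5 and 48.1 in F, 50.2 and 51.3 in F2i and 22.4 and 21.7 in NB2i, and was lower in NB2i than in F2i (log2 fold change -1.20 ± 0.06 (SE), edgeR adjusted p = 7.5e-14). Meioc, Mnd1 and Syce2, which act in meiotic prophase, recombination and the central element, were lower in NB2i than in G, by log2 fold changes of -1.28 ± 0.08, -1.21 ± 0.11 and -1.01 ± 0.06. Xlr3a, an X-linked gene of a family with near-identical copies, was at 0.23 and 0.29 FPKM in G, 0.88 and 1.54 in F, 6.15 and 6.7 in F2i and 4.24 and 4.29 in NB2i, and its rise from G to NB2i (log2 fold change 4.08 ± 0.25 (SE), edgeR adjusted p = 2.9e-12) is uncertain for that reason, as is that of Tuba3a (log2 fold change 1.12 ± 0.09 (SE), edgeR adjusted p = 1.8e-10).

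Factors of germ cell fate that ESCs express went in different directions. Kit, the receptor of stem cell factor, was at 10.4 and 11.1 FPKM in G, 16.7 and 17.1 in F, 47.5 and 47.0 in F2i and 57.2 and 56.5 in NB2i, and Prdm14, a regulator of primordial germ cells and of naive pluripotency, at 4.47 and 4.63 FPKM in G, 6.37 and 6.51 in F, 15.4 and 15.1 in F2i and 20.5 and 20.1 in NB2i. Both stepped up from G to NB2i without overlap, 5.55-fold (log2 fold change 2.47 ± 0.05 (SE), edgeR adjusted p = 4.8e-21) and 4.68-fold (log2 fold change 2.23 ± 0.07 (SE), edgeR adjusted p = 2.4e-17). Lin28a and Dppa3, which are also expressed in primordial germ cells, were lower in NB2i than in G, by log2 fold changes of -1.48 ± 0.04 and -1.21 ± 0.07. Of the 9 genes listed, 5 (Dppa2, Dppa3, Dppa4, Lin28a and Zscan4c) were lower and 2 higher in NB2i than in G, beside 16.1% and 11.1% of all genes. Zscan4c is also among the 8 genes of the 2-cell-like state above, so it is counted in both lists.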
